A study of Mus musculus with 4 samples.

Results

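The genes described here encode the membrane sector of the vacuolar proton pump. They are the 9 V0 subunit genes Atp6v0a1, Atp6v0a2, Tcirg1, Atp6v0b, Atp6v0c, Atp6v0d1, Atp6v0d2, Atp6v0e and Atp6v0e2, and Atp6ap1, whose product is an accessory protein of the same sector. The 10 genes were taken by symbol with all their exons in the deposited table, which gave 152 exons of 234718 listed and 10 genes of 22835 with a level. The set was chosen on Atp6v0d2, whose level was seen to differ between the libraries called Dox (+) and Dox (-). For Atp6v0d2 that contrast is therefore a description and supports nothing.

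The study asked whether the melanocyte form of Mitf can turn other cells into melanocyte-like cells. RNA was sequenced, with 1 library per condition, from wild-type mouse embryonic fibroblasts at passage 3 (MEF) and from Mitf knock-in MEFs at passage 5. The knock-in cells were left untreated, named Dox (-), or were given doxycycline over 6 days, named Dox (+). Primary mouse melanocytes at passage 5 (PMel) are not analysed here. Both knock-in libraries carry M2rtTA, a doxycycline-dependent activator, at the ROSA26 locus and a TetO promoter with the M isoform of Mitf at Col1a1, while the wild-type MEFs carry neither. The knock-in MEFs came from chimeric embryos made with 1 correctly targeted clone of KH2 embryonic stem cells, and the study describes an mCherry allele and puromycin resistance by which such cells can be separated from those of the host embryo. Whether that was done for these libraries is not given in the sources used here, so host cells without the alleles may be among them. The values of the library labelled MEF are not those that the study lists by gene for its MEFs, while those of the knock-in libraries are, so folds against MEF describe the library of that label. The wild-type MEFs also differ in passage and culture, and genotype, passage and culture cannot be told apart in comparisons with them. RNA was measured in bulk, so fewer cells of a type and less RNA per cell cannot be told apart.

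The V-ATPase is a rotary pump that acidifies lysosomes, endosomes, the Golgi and melanosomes, and in osteoclasts and kidney intercalated cells also the outside of the cell. Its V1 sector hydrolyses ATP in the cytosol, and its V0 sector carries protons through the membrane by a turning ring of c subunits that moves against a fixed a subunit. Several V0 subunits have paralogs with restricted tissues, among them Atp6v0d2 and Tcirg1, both best known from osteoclasts. Mitf belongs to the MiT/TFE factors, which bind E-box sequences (CACGTG and CATGTG, most often with a T before them) and are known for switching on lysosomal genes, pump subunits included.

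Because each paralog pair has a similar coding sequence, an exon of Atp6v0d2 and an exon of Atp6v0e2 are shown first, beside the matching stretch of the paralog. Sequences are 5′ to 3′ on the coding strand, from the GENCODE M21 transcripts of mm10. Capitals mark the bases that differ between the members of a pair. The first pair is the exon of 75 bases of Atp6v0d2 at chr4:19880005-19880079 (minus strand, exon 7 of 8, coding bases 817 to 891) and coding bases 817 to 894 of Atp6v0d1. The second pair is the exon of 48 bases of Atp6v0e2 at chr6:48539224-48539271 (plus strand, coding bases 105 to 152) and the same coding bases of Atp6v0e.
Atp6v0d2: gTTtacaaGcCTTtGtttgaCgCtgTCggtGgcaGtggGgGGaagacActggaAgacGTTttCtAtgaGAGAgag
Atp6v0d1: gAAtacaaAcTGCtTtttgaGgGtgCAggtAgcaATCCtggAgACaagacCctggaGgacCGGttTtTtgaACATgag
Atp6v0e2: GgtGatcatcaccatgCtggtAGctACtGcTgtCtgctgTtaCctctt
Atp6v0e: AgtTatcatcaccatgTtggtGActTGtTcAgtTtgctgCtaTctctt
In the first pair 30 aligned positions differ, of which 3 are a gap, and in the second pair 12 of 48 differ. Over the whole coding sequence the d subunit genes share 65.9% of 1050 aligned bases, with no identical stretch longer than 17 bases. The e subunit genes share 69.1% of 243 aligned bases, with no identical stretch longer than 12 bases. Among the a subunit genes identity lies between 64.4% (Tcirg1 and Atp6v0a1) and 66.8% (Tcirg1 and Atp6v0a2), with identical stretches of up to 29 bases.

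The E-box letters were looked for in the promoter windows of RefSeq (build GRCm38.p6, that is mm10), which run from 250 bases before to 50 bases after each start. CACGTG was searched on both strands, and so was CATGTG, each alone and with a T before it, so that the longer motif always contains the shorter one. Windows were listed for 8 of the 10 genes, 12 windows in all. Atp6v0d2 and Atp6v0a2 were not among them. The stretches that hold a T-extended E-box are printed on the strand of the gene, with the motif in capitals, because these 4 genes recur in the comparisons below. They lie at chr4:117887330-117887396 (minus strand), chr8:105566053-105566098 (minus strand), chr17:24169451-24169497 (minus strand) and chr17:26676368-26676413 (plus strand), in the order given.
Atp6v0b: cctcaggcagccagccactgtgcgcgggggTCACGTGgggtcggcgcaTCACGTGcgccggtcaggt
Atp6v0d1: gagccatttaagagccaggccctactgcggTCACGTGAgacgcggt
Atp6v0c: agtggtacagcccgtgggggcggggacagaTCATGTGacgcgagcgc
Atp6v0e: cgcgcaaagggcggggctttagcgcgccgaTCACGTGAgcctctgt
Atp6v0b held TCACGTG at 2 places, 37 and 19 bases before the start. Atp6v0d1 held it 4 bases before the start, followed by an A, so that it reads the same on both strands, and Atp6v0e held the same 8 letters from 2 bases after the start. Atp6v0c held TCATGTG 17 bases before the start of 1 of its 3 windows. The windows of Atp6v0a1, Tcirg1, Atp6v0e2 and Atp6ap1 held neither T-extended motif. Of 32851 windows in the table, 3.77% held TCACGTG, 3.77% held TCATGTG and 7.40% held either. A match describes these letters only and is not a binding site.

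The files hold RPKM values, that is, reads on an exon divided by its length in kb and by the aligned reads of the library. Multiplied by exon length and a whole-number depth they gave whole reads, within 0.02 of a read, for 96.8% to 97.1% of low values, at 45000000 reads for MEF and Dox (-) and 44000000 for Dox (+). The level of a gene was its highest exon RPKM, following the study's methods. A gene was tested when it exceeded 10 RPKM in at least 1 of the 2 libraries compared, and called when it was also more than 4-fold apart. There is no replicate check, and the intervals given, at 95%, cover counting error only. A read over a junction counts on both exons, so intervals over a transcript count some reads more than once and are too narrow. Mitf, the induced gene, stood at 1.52 RPKM in MEF, 30.8 in Dox (-) and 1544 in Dox (+), highest in the library labelled as treated. The median log2 difference of the tested genes between Dox (+) and Dox (-) was 0.23, so the values below are read against that shift. The fibroblast markers summed to 34259 RPKM in MEF, 68391 in Dox (-) and 21984 in Dox (+), with 9, 10 and 10 of 10 above 10 RPKM and none at 0.

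Before any fold, the levels of the 10 genes were compared per length within each library. For this the reads on the exons of 1 principal transcript per gene were summed and divided by their length and the depth, which gives an RPKM value per transcript. Atp6v0b, a subunit of the proton-carrying ring, was the most abundant member in all 3 libraries, at 463 RPKM per transcript in MEF, 486 in Dox (-) and 615 in Dox (+). Atp6ap1, an accessory protein that travels with the pump, stood at 429 in MEF, 430 in Dox (-) and 372 in Dox (+). Atp6v0e, a small membrane subunit, stood at 414, 423 and 486 in the same order of libraries. The ring subunit Atp6v0c was at 210, 298 and 444, and Atp6v0d1, which links the ring to the V1 stalk, at 265, 252 and 345. Atp6ap1 was thus above Atp6v0e in MEF and Dox (-), and under Atp6v0e and Atp6v0c in Dox (+). The 3 a subunit genes, whose products line the path of the protons, lay lower, between 38.7 and 103 over all libraries. Atp6v0d2 and Atp6v0e2 were the lowest members in MEF and in Dox (-).

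**Figure D1:**
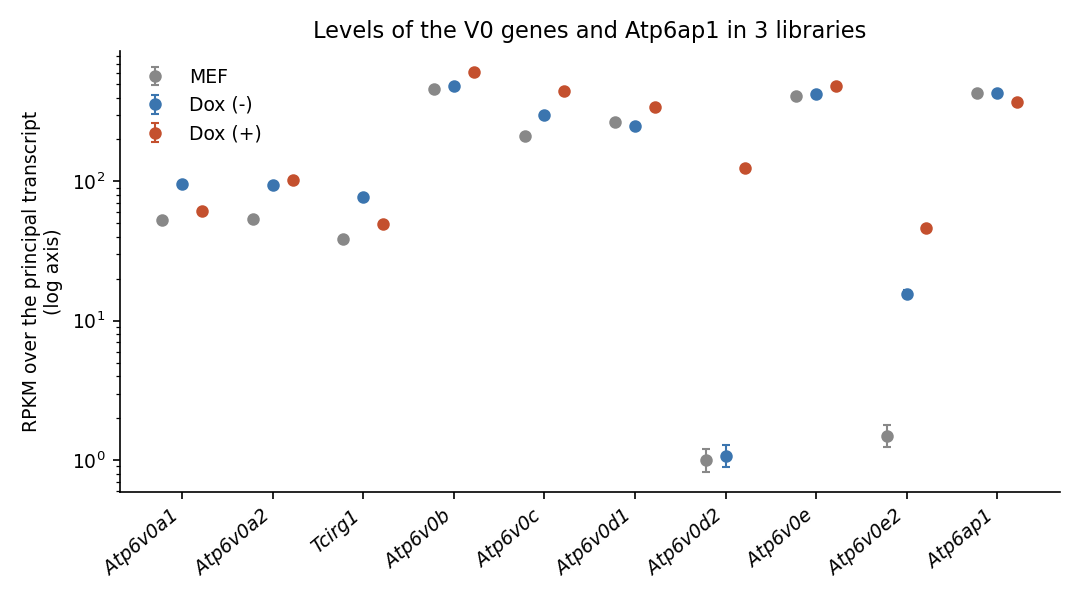
Level of each gene in the 3 libraries, as RPKM over its principal transcript on a log axis, with MEF in grey, Dox (-) in blue and Dox (+) in orange. Bars are 95% counting intervals of summed exon reads, which are too narrow because junction reads count on both exons, and are mostly smaller than the points. Atp6v0d2 lies near 1 in MEF and Dox (-) and at 124 in Dox (+), and Atp6v0e2 lies at 1.49, 15.6 and 46.0.

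Atp6v0d2, the paralog of the d subunit found in osteoclasts, macrophages and kidney, spans bases 19876841 to 19922605 of chromosome 4 (minus strand). Its highest exon value was 3.26 RPKM in MEF, 4.44 in Dox (-) and 551 in Dox (+). The value in MEF is that of the exon of 75 bases printed above. The other values are those of an exon of 25 bases, which had 0.889 RPKM in MEF. The printed exon had 2.67 RPKM in Dox (-) and 310 in Dox (+). The principal transcript had 114 reads in MEF, 123 in Dox (-) and 13843 in Dox (+). Its level in Dox (+) was 115-fold that in Dox (-) (96.4 to 139) and 124-fold that in MEF (103 to 151). Summed over the transcript, Dox (-) was 1.08-fold MEF (0.829 to 1.40), an interval that holds 1. Its portions went opposite ways, since the 5′ portion had 46 reads in MEF and 78 in Dox (-), and the 3′ portion had 68 and 45.

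The difference was present along the whole gene. Each of the 11 listed exons passed 4-fold in Dox (+) over Dox (-), and each also passed it over MEF. They ranged from 0.373 to 3.26 RPKM in MEF, from 0.649 to 4.44 in Dox (-) and from 74.9 to 551 in Dox (+). The exon at 551 RPKM has 25 bases and lies inside the exon of 179 bases that ends at the same place, which had 183 RPKM in Dox (+). A read that overlaps any base of an exon was counted, so very short exons have high RPKM values. Over the 8 exons of the principal transcript the fold of Dox (+) over Dox (-) lay between 77.9 and 311, with a median of 116. The exon printed above had 11 reads in MEF, 9 in Dox (-) and 1022 in Dox (+), a fold of 116 over Dox (-) (60.9 to 255). The gene has 2 annotated first exons, and both were higher in Dox (+). The first exon of the principal transcript had 4 reads in MEF, 17 in Dox (-) and 1295 in Dox (+), and the alternative one had 4, 10 and 691.

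Atp6v0d1, the widely expressed paralog, stood at 526 RPKM in MEF, 492 in Dox (-) and 682 in Dox (+) on its exon of 80 bases. Its transcript level in Dox (+) was 1.37-fold that in Dox (-) (1.34 to 1.40), with all 8 exons higher. In Dox (-) it was slightly under MEF, at 0.948-fold (0.929 to 0.967). Both genes have 8 exons in the principal transcript, and 5 of them have the same length in both, so these exons can be compared without a length correction. The share of Atp6v0d2 in the summed RPKM of such a pair lay between 0.106% and 0.594% in MEF, between 0.169% and 0.856% in Dox (-), and between 27.6% and 38.0% in Dox (+). Over the whole transcript Atp6v0d2 made up 0.374% of the d subunit level in MEF, 0.426% in Dox (-) and 26.5% in Dox (+) (26.0% to 26.9%). Outside the pairs of equal length, the share in Dox (+) was 59.6% at the first exon and 20.6% at the last. Atp6v0d1 thus had the larger level in every library, and the summed d subunit level was 266 RPKM per transcript in MEF, 253 in Dox (-) and 468 in Dox (+).

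**Figure D2:**
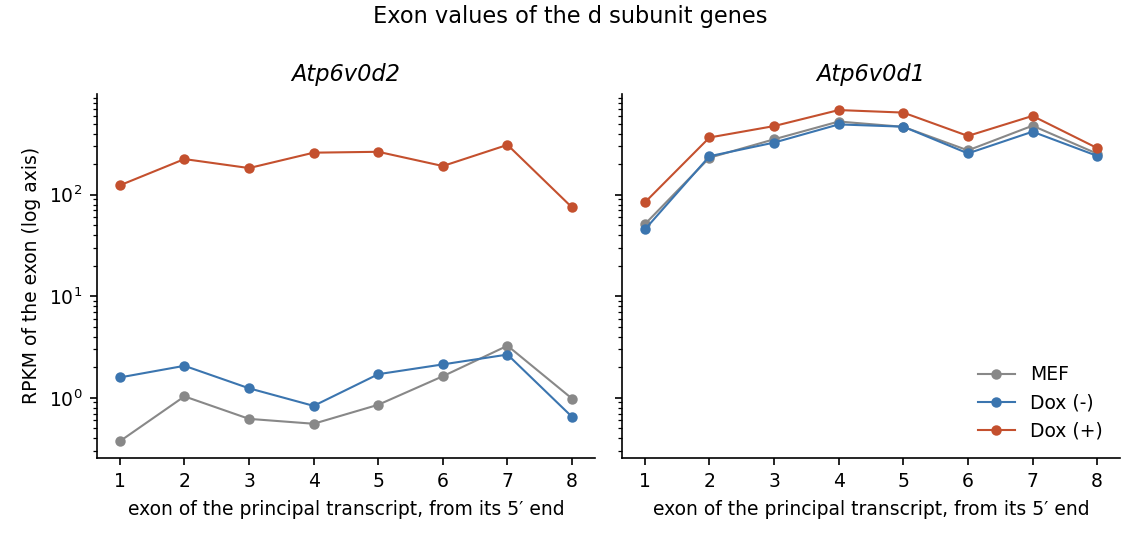
RPKM of the 8 exons of the principal transcript of Atp6v0d2 (left) and Atp6v0d1 (right), in order from the 5′ end, on a shared log axis, with a line for each library. The 8 Atp6v0d2 exons lie between 74.9 and 310 RPKM in Dox (+) and between 0.373 and 3.26 in the other libraries, while the lines of Atp6v0d1 lie close together.

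Atp6v0e2, the other gene for the small e subunit, spans bases 48537615 to 48541801 of chromosome 6 (plus strand). Its highest exon, printed above, stood at 4.17 RPKM in MEF, 32.9 in Dox (-) and 129 in Dox (+), with 9, 71 and 273 reads. All 3 libraries were apart beyond counting error. Over the principal transcript Dox (-) was 10.5-fold above MEF (8.67 to 12.7), and Dox (+) was 30.9-fold above MEF (25.7 to 37.4). Dox (+) was 2.95-fold above Dox (-) (2.77 to 3.15). The 4 exons of the gene gave folds of 2.73 to 3.93 for Dox (+) over Dox (-). The highest exon, at 3.93-fold (3.02 to 5.18), lay just under the 4-fold threshold, so that the gene was called higher against MEF but not against Dox (-). Unlike that of Atp6v0d2, the difference of Atp6v0e2 from MEF was thus already present in the untreated knock-in cells.

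Atp6v0e, on the plus strand of chromosome 17, had 999 RPKM in MEF, 1099 in Dox (-) and 1236 in Dox (+) on its exon of 48 bases, which has the same length as that of Atp6v0e2. Over the transcript Dox (+) was 1.15-fold above Dox (-) (1.12 to 1.17), and Dox (-) was 1.02-fold above MEF. Atp6v0e2 made up 0.359% of the e subunit level in MEF, 3.56% in Dox (-) and 8.65% in Dox (+) (8.37% to 8.94%).

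The a subunit genes had another order. Atp6v0a1, which serves the pump of neurons and many other cells, had 232 RPKM in MEF, 383 in Dox (-) and 188 in Dox (+), each on an exon of 18 bases. Over its transcript of 22 exons Dox (-) was 1.81-fold above MEF (1.76 to 1.85) and 1.56-fold above Dox (+) (1.52 to 1.60). All 22 exons were lower in Dox (+) than in Dox (-), by 1.18-fold to 2.03-fold, each beyond counting error. Tcirg1, the a subunit of the osteoclast pump, had 82.5 RPKM in MEF, 182 in Dox (-) and 93.4 in Dox (+) on an exon of 91 bases. Its transcript was higher in Dox (-) than in MEF, with an interval of 1.93-fold to 2.07-fold, and 1.57-fold higher than in Dox (+) (1.52 to 1.63), with 17 of 20 exons lower in Dox (+). Atp6v0a2, the a subunit best known from the Golgi, had 83.0 RPKM in MEF, 131 in Dox (-) and 134 in Dox (+). Over 18 listed exons of 20 its transcript was 1.75-fold above MEF in Dox (-) (1.69 to 1.81) and 1.91-fold above MEF in Dox (+) (1.85 to 1.97), and Dox (+) was 1.09-fold above Dox (-) (1.06 to 1.12). Atp6v0a1 and Tcirg1 were therefore highest in Dox (-), while Atp6v0a2 was high in both knock-in libraries.

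Per length, the a subunits were nearly even in MEF, where Atp6v0a1 made up 35.6%, Atp6v0a2 36.3% and Tcirg1 26.1% of their sum. The shares in Dox (-) were 35.6%, 35.0% and 28.8%. In Dox (+) Atp6v0a2 made up 48.1% (47.5% to 48.7%), Atp6v0a1 28.6% and Tcirg1 23.0%. The fourth a subunit gene, Atp6v0a4, which is known from kidney, made up 2.04%, 0.562% and 0.233% in the same order of libraries. With the highest exon of each gene in place of the transcript, Atp6v0a1 took 57.4%, 54.7% and 45.1%, since its exon of 18 bases inflates its value.

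**Figure D3:**
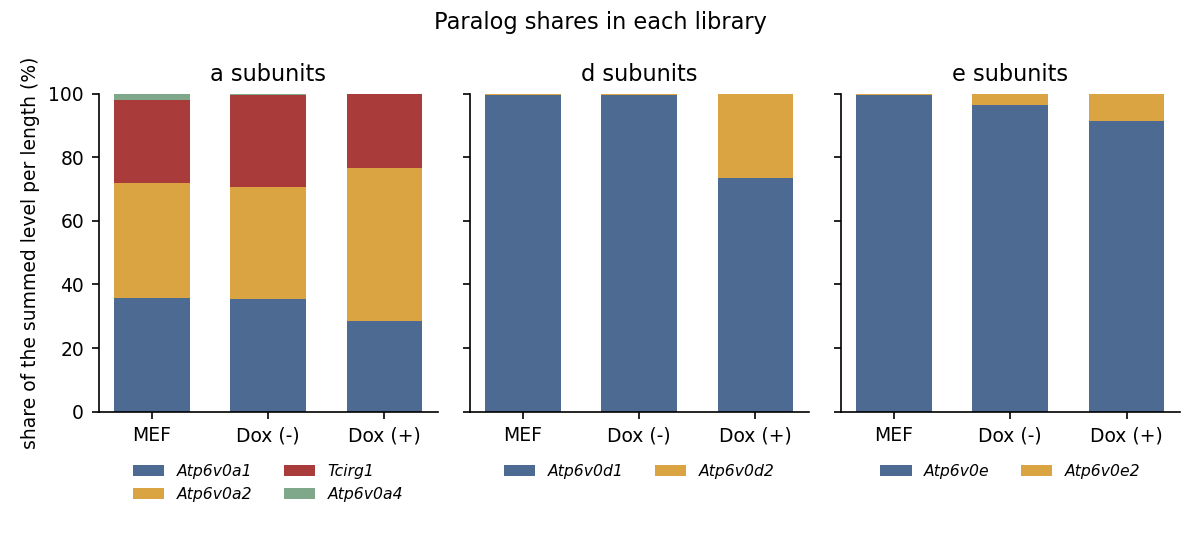
Share of each paralog in the summed level per length of the a, d and e subunits, in percent, as stacked bars for MEF, Dox (-) and Dox (+). Atp6v0d2 takes 26.5% of the d subunits in Dox (+) and under 0.5% in the other libraries, and Atp6v0a2 takes 48.1% of the a subunits in Dox (+).

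The levels of Atp6v0a1 and Tcirg1 were highest in Dox (-), which also had the highest marker sums of both macrophages and fibroblasts. Of the 10 fibroblast markers, whose sums are given above, 4 were called higher in Dox (-) against MEF, beside 8.26% of all genes tested. In Dox (+) against Dox (-), 5 of them were called lower, beside 5.41% of all genes tested. The 12 macrophage markers summed to 63.2 RPKM in MEF, 17915 in Dox (-) and 634 in Dox (+), with none at 0. In Dox (-) against MEF 12 of 12 were called higher, and in Dox (+) against Dox (-) 12 of 12 were called lower, beside the same shares. In Dox (+) against MEF, 5 of 6 macrophage markers tested were called higher, as were 3 of 10 fibroblast markers, and 0 lower. Of all genes tested there, 6.55% were called higher and 3.4% lower. The part of macrophages, of fibroblasts or of their transcripts in the levels of the a subunits, Atp6v0e2 and Atp6ap1 was not tested. Atp6v0d2, which macrophages also express, had 114 reads in MEF and 123 in Dox (-) over its transcript. Of its 8 exons, 6 were higher and 2 lower in Dox (-) than in MEF. The first exon had 4 and 17 reads, and the last had 68 and 45. The part of macrophages in the level of Atp6v0d2 was not tested. The 12 osteoclast markers summed to 602, 1213 and 1372 RPKM in MEF, Dox (-) and Dox (+), and 3, 0 and 1 of them were at 0. Between Dox (+) and Dox (-) 8 were tested, 5 lay above 0, 0 were called higher and 1 was called lower. Of all genes tested, 62.6% lay above 0, 1.64% were called higher and 5.41% lower. The osteoclast marker called was Mmp9, a matrix protease, at 0.317, 27.1 and 4.81 RPKM in the 3 libraries. At 2-fold, Itgb3 and Car2 were higher, and Acp5 and Mmp9 were lower, beside 10.8% and 11.1% of all genes. Itgb3, an integrin chain of adhesion, had 22.0, 61.3 and 148 RPKM, and Car2, a carbonic anhydrase, had 10.9, 6.72 and 16.6. Most of the rest of the sum came from Ctsk, the collagen-degrading protease, at 18.2, 259 and 450 RPKM, and from the lysosomal chloride transporter genes Ostm1, at 331, 580 and 468, and Clcn7, at 173, 232 and 238. Acp5, the tartrate-resistant phosphatase that defines osteoclasts, stood at 5.21, 10.6 and 3.91 RPKM. In Dox (+) Calcr was at 0 and Oscar, Dcstamp and Ocstamp were under 1 RPKM. The 3 kidney intercalated cell markers found summed to at most 7.72 RPKM in any library. The 3 dendritic cell markers found summed to 9.23, 21.4 and 60.8 RPKM, and none was at 0. Of these H2-Ab1, an MHC class II chain, had 0.801, 9.26 and 54.9 RPKM and was called higher in Dox (+) against both other libraries. The other markers found, Itgax and Zbtb46, were lower in Dox (+) than in Dox (-). Itgax had 0.556, 6.10 and 1.05 RPKM, and Zbtb46 had 7.88, 6.08 and 4.78. The part of the osteoclast and dendritic cell markers' cells in the level of Atp6v0d2 was not tested.

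At every exon of the principal transcripts of the ring subunits, Dox (+) had the highest value of the 3 libraries. Atp6v0b had 1352 RPKM in MEF, 1385 in Dox (-) and 1698 in Dox (+) on an exon of 38 bases. Over its transcript Dox (+) was 1.27-fold above Dox (-) (1.24 to 1.29) and 1.33-fold above MEF (1.30 to 1.35), with 8 of 8 exons higher in both cases and exon folds over Dox (-) of 1.09 to 1.63. Atp6v0c had 404 RPKM in MEF, 587 in Dox (-) and 905 in Dox (+) on an exon of 189 bases. Over its transcript Dox (+) was 1.49-fold above Dox (-) (1.46 to 1.52) and 2.11-fold above MEF (2.07 to 2.16), and Dox (-) was 1.42-fold above MEF (1.38 to 1.45). Atp6v0c was the only member apart from Atp6v0d2 and Atp6v0e2 to pass 2-fold against MEF in Dox (+). When the libraries were rescaled by the median ratio of their genes, its log2 difference on the highest exon dropped from 1.16 to 0.92, under 2-fold. That of Atp6v0b dropped from 0.33 to 0.08.

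Atp6ap1, on the X chromosome, had 2444 RPKM in MEF, 2935 in Dox (-) and 2577 in Dox (+), on an exon of 13 bases. Over its transcript MEF and Dox (-) were level, with a fold of 1.00 (0.988 to 1.02), and Dox (-) was 1.16-fold above Dox (+) (1.14 to 1.17). Its exons did not go one way. Of 10, 3 were higher and 7 lower in Dox (+) than in Dox (-), from 1.48-fold higher to 1.33-fold lower.

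Such a slope along the transcript was found in many genes. The log2 fold of Dox (+) over Dox (-) was larger in the 5′ portion of the transcript than in the 3′ portion for 82.7% of 11348 genes, with a median difference of 0.25. Only genes with at least 50 reads in each portion of both libraries entered this share and the medians. For the members this difference was 0.54 for Tcirg1, 0.43 for Atp6v0e2, 0.39 for Atp6v0c, 0.31 for Atp6ap1 and 0.25 for Atp6v0a1. It was smaller for Atp6v0d1 (0.19), Atp6v0b (0.17), Atp6v0a2 (0.08) and Atp6v0e (0.04). For Atp6v0d2 it was under 0.01 in size, with a fold of 115 in both portions. That gene had only 78 and 45 reads in the portions of Dox (-), the latter under the minimum of 50, so its difference is imprecise. Against MEF, however, Dox (+) was 195-fold higher in the 5′ portion of Atp6v0d2 and 76.3-fold higher in the 3′ portion. This is a difference of 1.35 beside a median of 0.43 over the genes that met the minimum. In MEF the portions had 46 and 68 reads, the former under that minimum. Between Dox (+) and Dox (-), both portions gave the same side of 1 for each of these genes, at 1.21-fold and 1.76-fold lower for Tcirg1 and at 3.69-fold and 2.73-fold higher for Atp6v0e2. What set the slope was not tested.

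**Figure D4:**
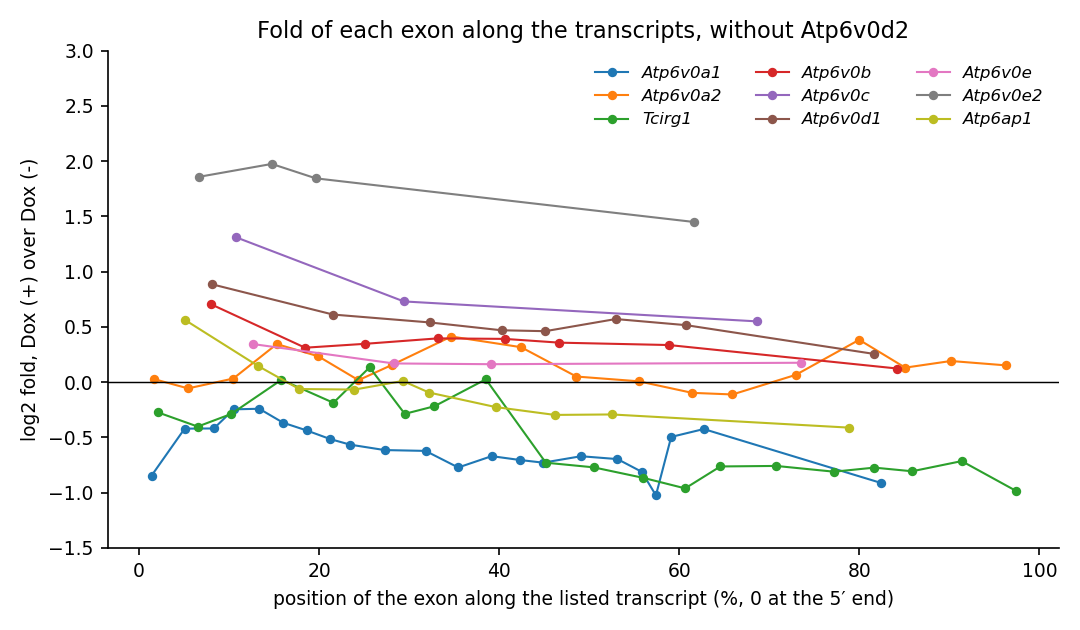
Log2 fold of Dox (+) over Dox (-) for each principal exon of the 9 genes other than Atp6v0d2, against the position of the exon along the listed transcript in percent from the 5′ end, with a line for each gene. Atp6v0e2 lies highest throughout, Atp6v0a1 lies under 0 at all 22 exons, and the lines of Tcirg1 and Atp6ap1 go down toward the 3′ end.

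The members were then counted against all genes. Between Dox (+) and Dox (-) all 10 were tested, and 1 was called higher (Atp6v0d2, by which the set was chosen) and 0 lower, where 1.64% of 13307 genes were called higher and 5.41% lower. At more than 2-fold, 2 were higher (Atp6v0d2 and Atp6v0e2) and 1 was lower (Atp6v0a1, on its exon of 18 bases), against 10.8% and 11.1% of all genes. Their median log2 difference, after adding 1 RPKM, was 0.23, the same as the 0.23 of all genes tested. Apart from Atp6v0d2 at 6.66 and Atp6v0e2 at 1.94, the members lay between -1.02 (Atp6v0a1) and 0.62 (Atp6v0c). When the libraries were rescaled by the median ratio of their genes, these differences dropped by about 0.28, which put Atp6v0e at -0.11, Atp6v0a2 at -0.26 and Atp6v0b at 0.01, and left 5 of 10 members above 0.

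Between Dox (+) and MEF all 10 were tested, and 2 were called higher (Atp6v0d2 and Atp6v0e2) and 0 lower, beside 6.55% of 12941 genes higher and 3.4% lower. At more than 2-fold, 3 were higher (with Atp6v0c) and 0 lower, beside 20.2% and 8.98% of all genes. The median log2 difference of the members was 0.35, and that of all genes 0.27. Atp6v0d2 was at 7.02, Atp6v0e2 at 4.66, Atp6v0c at 1.16 and Atp6v0a2 at 0.68. Atp6v0a1, Tcirg1 and Atp6ap1 lay between -0.30 and 0.18, and their sign depended on the exons or the scaling used. Atp6v0d2 and Atp6v0e2, at 3.26 and 4.17 RPKM in MEF, were tested only through Dox (+), so the filter fixed their direction. This comparison shares the Dox (+) library with the one before, by which Atp6v0d2 was chosen, so for that gene it supports nothing.

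Between Dox (-) and MEF 9 members were tested, since Atp6v0d2 was under 10 RPKM in both. Atp6v0e2 was called higher and 0 were lower, beside 8.26% of 13234 genes higher and 1.21% lower. At more than 2-fold, 2 were higher (Atp6v0e2 and Tcirg1) and 0 lower, beside 17.3% and 7.93% of all genes. The median log2 difference was 0.54 for the members and 0.01 for all genes. Of the members 8 of 9 lay above 0, with Atp6v0d1 at -0.09, beside 50.6% of all genes. Some were close to 0, with Atp6v0b at 0.03 and, over the transcript, Atp6v0e at 0.03 and Atp6ap1 at 0.002. With exons of at least 50 bases Atp6v0b was at -0.01 and Atp6ap1 at -0.06, while the others above 0 stayed there. Atp6v0e2, at 4.17 RPKM in MEF, was tested only through Dox (-), so the filter fixed its direction.

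**Figure D5:**
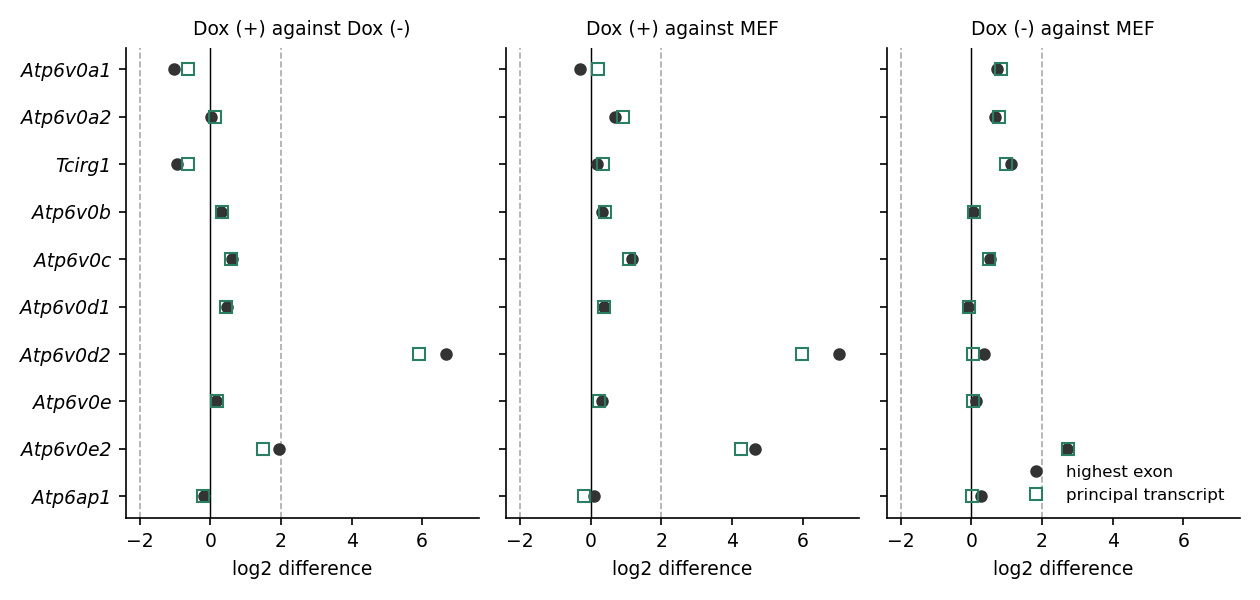
Log2 difference of each gene, after adding 1 RPKM, in the 3 comparisons, for the highest exon (filled circles) and for the principal transcript (open squares). Dashed lines mark 4-fold. In Dox (+) against Dox (-) and against MEF, Atp6v0d2 lies at 6.66 and 7.02 for the highest exon and at 5.91 and 5.97 for the transcript. Atp6v0e2 lies past the line in both comparisons with MEF.

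The other genes of the pump were counted in the same way. Of 13 genes for V1 subunits, which hold the catalytic and stalk parts, 11 were found and 9 tested between Dox (+) and Dox (-). All 9 were higher in Dox (+), by log2 differences of 0.43 to 2.38 with a median of 0.79, and all 9 stayed above 0 after rescaling, from 0.15 to 2.12. Over all genes tested, 62.6% lay above 0 in this comparison. The genes found but not tested went both ways, at 3.97 RPKM in Dox (-) and 3.25 in Dox (+) for Atp6v1b1, and 5.01 and 8.96 for Atp6v1g2. Only Atp6v1c2, a tissue-restricted stalk subunit, was called, at 3.90 RPKM in Dox (-) and 24.5 in Dox (+). It was tested only through Dox (+), so the filter fixed its direction, and it gave the upper end of both ranges. Its level in Dox (+) rests on 14 reads on an exon of 13 bases, and the gene was not called when exons under 50 bases were left out. Over its transcript, with 49 reads in Dox (-) and 292 in Dox (+), the fold was 6.09 (4.49 to 8.43), at levels under 10 RPKM. Among the catalytic and regulatory subunits, Atp6v1a had 578 RPKM in Dox (-) and 812 in Dox (+), and Atp6v1b2 had 342 and 591. Between Dox (-) and MEF, 8 V1 genes were tested, 4 lay above 0, the median was -0.04 and 0 were called. Against MEF, 9 of 9 were higher in Dox (+), with a median of 0.72, and 8 of 9 after rescaling, where 63.3% of all genes lay above 0 before rescaling. Atp6v1c2, at 4.58 RPKM in MEF, was again tested only through Dox (+).

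Of the V0 genes outside the set, Atp6ap2, the prorenin receptor that also accompanies the pump, had 599 RPKM in MEF, 586 in Dox (-) and 319 in Dox (+). Rnasek, a small V0-associated protein, had 300, 397 and 810 RPKM, but its 5 exons overlap another gene. Atp6v0a4 and Atp6ap1l were under 10 RPKM in all libraries. Of 12 assembly and regulatory factors, 11 were tested between Dox (+) and Dox (-), 5 lay above 0 and 0 were called. The largest differences were those of Dmxl2, part of the complex that joins V1 to V0, with 7.13 RPKM in MEF, 13.8 in Dox (-) and 54.4 in Dox (+), and of Tmem199, a V0 assembly factor, with 78.6, 104 and 231. Dmxl2 was called higher in Dox (+) than in MEF. On its highest exon it was 3.93-fold above Dox (-), and over its transcript 4.57-fold (4.34 to 4.81), which called it against Dox (-) too.

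The levels of the other MiT/TFE factors were set beside these values. Tfe3 had 196 RPKM in MEF, 293 in Dox (-) and 322 in Dox (+), and Tfeb had 27.7, 32.5 and 23.1. Tfec, which is known from macrophages, was listed at 0 in MEF and had 10.4 RPKM in Dox (-) and 1.20 in Dox (+).

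Among 11809 genes above 10 RPKM in at least 1 library, the 5 with the pattern most like that of Atp6v0d2 were found by the root mean square difference of their centred log2 levels over the 3 libraries. They were Tyrp1 at 0.20, Mlana at 0.27, Lce1a2 at 0.86, Trim63 at 0.88 and Upp1 at 0.88. The ranking rests on 3 libraries and uses the Dox (+) and Dox (-) values by which Atp6v0d2 was chosen. It therefore describes these levels only and supports no shared regulation. Tyrp1, a melanosomal enzyme of pigment synthesis, stood at 0, 0.520 and 110 RPKM in MEF, Dox (-) and Dox (+). Mlana, a melanosome protein, stood at 0.585, 0.390 and 133 RPKM. Upp1, uridine phosphorylase, was the only one of the 5 above 5 RPKM in MEF, at 5.56, 16.7 and 398 RPKM. Of the 10 melanocyte markers 3 were above 10 RPKM in Dox (+), which were Tyrp1, Mlana and Pmel at 13.0 RPKM. The markers summed to 4.63 RPKM in MEF, 14.9 in Dox (-) and 272 in Dox (+). Oca2 was at 0 in all 3 libraries, and Tyr, the rate-limiting pigment enzyme, stood at 2.37 RPKM in Dox (+).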

How the data were processed

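RNA-seq was made with poly(A) RNA and the TruSeq kit from 4 cultures, 1 library each. By the submitters' processing notes, bcl2fastq 2.17.1.14, TopHat2 2.0.10, bedtools and mm10 were used, and the authors deposited RPKM values per Ensembl exon. The study describes filters on exon type and on RPKM, but the exon numbers it gives for them are not the number listed, so which filter made the table is not known here. Whether reads were counted by strand is not given in the sources used here. Columns were assigned to libraries by name, and 1 value column matched no library and was not used. PMel therefore had no values, and its comparisons were not run. The library labelled MEF was matched by name only, and its values are not those the study lists by gene for MEF.

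Exons were joined to genes with GENCODE M21, and 6586 of 234718 had no match. Reads were recovered with exon lengths and a whole-number depth on the RPKM scale, searched between 20 and 80 on values under 200 reads. The precision is that of these counts, at 95% (exact Clopper-Pearson interval), and 3 reads were the floor, which is 0.444 RPKM in MEF and Dox (-) and 0.455 in Dox (+) on 150 bases. A gene's level was its highest exon, and log2 differences used a pseudocount of 1 RPKM, which understates low genes. Principal transcripts were those with the best APPRIS tag and the longest coding sequence, and a read over a junction counts on both exons. Intervals on summed exon reads treat such reads as separate counts and are therefore too narrow. With 1 library per condition no p-value was computed. The numbers in the rule for a call (above 10 RPKM in 1 of the 2, more than 4-fold) are those of the study's exon filters, which it applied over all samples and between MEF and melanocytes. Here they were applied to gene levels within each pair of libraries.

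The members, the gene lists and the rules were chosen with earlier results of these data known. The genes named are the 10 members, Mitf, genes of the pump and marker lists that were called or had the largest differences, and the 5 most like Atp6v0d2. Others of these lists, among them Atp6v1a, Atp6v1b2, Atp6ap2, Tfe3, Tfeb, Acp5, Itgb3, Car2, Ostm1, Clcn7, Oca2 and Tyr, were named after their values were seen. Alternatives changed the fold, the minimum, the pseudocount, the exons and the scaling. The minimum exon length, the split into 5′ and 3′ portions and the rescaled Atp6v0d2 exons were added after seeing the data. The steps were tested on simulated data. Python 3.11.15, pandas 2.3.3, NumPy 2.4.6, SciPy 1.17.1, Biopython 1.88 and matplotlib 3.10.9 were used. The RefSeq promoter table has no entry for 2 members.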

Additional observations from a re-analysis of the deposited data

How the results depend on the processing

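With 1 library per condition, counting error is the only error measured. The alternatives added after seeing the data were a minimum exon length of 50 bases, the 5′ and 3′ portions of transcripts and the rescaled exons of Atp6v0d2. The counts of members called changed only with the fold threshold: at 2-fold, 2 higher and 1 lower in Dox (+) against Dox (-), 3 in place of 2 higher in Dox (+) against MEF, and 2 higher in Dox (-) against MEF. Among the other pump genes, 1 was called higher in Dox (+) against Dox (-), which became 4 at 2-fold and 0 with exons of at least 50 bases. Over the principal transcript the count was also 1, but the gene was Dmxl2 in place of Atp6v1c2. Of all genes 1.64% were called higher, which became 10.8% at 2-fold, 1.47% with exons of at least 50 bases and 1.06% over the principal transcript. Against MEF, 2 of the other pump genes were called higher in Dox (+). This became 8 at 2-fold, 1 over the principal transcript and 1 with exons of at least 50 bases. The shares of all genes were 6.55% as reported, and 20.2%, 4.83% and 5.88% in the same order. As reported, 9 V1 genes, 2 other V0 genes and 11 factors were tested against Dox (-), and as many against MEF. With no minimum beyond 3 reads, 1 other pump gene was lower in Dox (+) and 1 higher in Dox (-), each against MEF. Of all genes 6.02% and 15.9% were so called. At that setting 8 macrophage markers in place of 5 were higher in Dox (+) than in MEF, beside 12.6% of all genes in place of 6.55%. With the highest exon in place of the transcript, the shares in MEF, Dox (-) and Dox (+) became 57.4%, 54.7% and 45.1% for Atp6v0a1, 20.5%, 18.8% and 32.0% for Atp6v0a2, and 20.4%, 26.0% and 22.4% for Tcirg1. The share of Atp6v0d2 became 0.616%, 0.895% and 44.7%, and that of Atp6v0e2 2.90% in Dox (-) and 9.47% in Dox (+). With a pseudocount of 5 RPKM, 3 of the 5 genes most like Atp6v0d2 were kept. Of 210 log2 differences of members under 7 alternatives, 169 moved by no more than the counting error of 1 exon, and 13 changed sign. Some alternatives could not move a value, since leaving out exons that overlap another gene changed no member's difference. For Atp6v0d2 in Dox (+) against MEF the interval rests on 1 read in MEF (111-fold to 24520-fold) and is too wide to leave. No called difference was reversed, but these were those of Atp6v0d2 and Atp6v0e2, at 7.89-fold or more. The sign changes were those of Atp6v0a2 and Atp6v0e in Dox (+) against Dox (-), of Atp6v0a1, Tcirg1 and Atp6ap1 in Dox (+) against MEF, and of Atp6v0b, Atp6v0d2 and Atp6ap1 in Dox (-) against MEF. The causes of these changes were not tested, apart from the short exons, whose values are inflated by construction. No paired analysis was possible because each condition has 1 library.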
